A study of Mus musculus with 6 samples.

Results

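Voltage-gated calcium channels let calcium into a cell when its membrane depolarizes, and each channel is built around a single pore-forming subunit encoded by a *Cacna1* gene. The mouse genome holds 10 such genes, and all 10 were followed here, taken by gene symbol from the 55573 genes of the count table. No value of a member entered that rule, though the family was picked with earlier results of these data known. By the current they carry, the channels fall into L type (*Cacna1c*, *Cacna1d*, *Cacna1f* and *Cacna1s*), P/Q type (*Cacna1a*), N type (*Cacna1b*), R type (*Cacna1e*) and T type (*Cacna1g*, *Cacna1h* and *Cacna1i*). L-type channels open at strong depolarization, stay open long and couple activity to contraction, secretion and transcription. P/Q-, N- and R-type channels sit mainly at nerve terminals, where calcium entry triggers transmitter release. T-type channels open near the resting potential and shape rhythmic firing. In the retina, ribbon synapses of photoreceptors and bipolar cells depend on L-type channels.

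Adult C57BL/6J mice of both sexes received an adeno-associated virus (AAV2) in the vitreous body, carrying *GFP* (control group) or *Ezh2*, the catalytic subunit of a Polycomb complex that methylates histone H3 and represses transcription. The optic nerve of both groups was crushed 2 weeks later, so no uninjured group entered the comparison, and 3 days after the crush dissociated retinal cells were sorted for CD90.2, the product of *Thy1*, to enrich retinal ganglion cells (RGCs). Total RNA from the sorted cells gave 3 GFP and 3 Ezh2 libraries, with between 30569933 and 35971192 counts each. Whether the libraries of a group came from separate animals was not stated, so *P* values measure the spread between these samples.

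*Ezh2* mRNA was present at 28.8, 34.6 and 32.99 CPM (counts relative to the total of the library) in GFP replicates 1 to 3 and at 78.0, 65.3 and 104.8 CPM in Ezh2 replicates 1 to 3. It rose by 1.17 ± 0.09 on the log2 scale (SE, edgeR quasi-likelihood test, adjusted *P* = 1.56e-07), and by 1.41 ± 0.18 in all 6 libraries (adjusted *P* = 0.0080). The first comparison used 5 libraries, GFP replicates 1 to 3 and Ezh2 replicates 1 and 2, because the study left out 1 Ezh2 library, inferred to be replicate 3. Ezh2 replicate 3 stood apart. Its log2 CPM correlated with the other libraries at r = 0.958 to 0.972, against 0.976 to 0.988 among the others, and its T cell marker genes summed to 1059 CPM, against 250 to 337 CPM elsewhere. The main results below are therefore given on 5 libraries and on all 6.

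The labels name the cells RGCs, but the *Pou4f* genes among the markers of this cell type were near 0. *Pou4f2*, a transcription factor of most RGCs, had at most 0.0932 CPM and was at 0 in 2 of 6 libraries, and *Pou4f1*, its relative, had at most 0.6003 CPM. A level of 0 allowed up to 3 counts, or 0.0834 to 0.0981 CPM by library, counting error only. The RNA-binding protein gene *Rbpms* reached 16.4 to 20.8 CPM and *Thy1*, used for sorting, 87.2 to 113.8 CPM. *Nefl* had 9.42 to 15.4 CPM, *Isl1* 5.98 to 11.65, *Slc17a6* 4.09 to 8.17, *Nefm* 2.44 to 3.92 and *Sncg* 1.73 to 3.36 CPM. In 5 libraries 2 of the 8 tested were higher at an adjusted *P* below 0.05 and 0 lower, beside 9.38% and 7.07% of all tested genes. These were *Nefl* (log2 fold change 0.56, edgeR, adjusted *P* = 0.0031) and *Thy1* (0.22, adjusted *P* = 0.016). *Thy1* was highest in Ezh2 replicate 3, the library with the highest T cell markers, and the part of T cells in its values was not tested. All 10 RGC markers together, with *Thy1* the largest part, summed to 136 to 139 CPM in the GFP group and 153 to 168 CPM in the Ezh2 group. By contrast, 6 Müller glia markers summed to 15850 to 20820 CPM. Of these, *Glul* had 5446 to 9900 CPM and *Apoe*, which macrophages also express, 5471 to 9638 CPM. The 6 microglia and macrophage markers summed to 1131 to 1614 CPM. The 9 bipolar cell markers, which share *Isl1* with the RGC list, summed to 530 to 652 CPM. Sums over different genes do not measure shares of cells. Given all these values, the cells are called sorted retinal cells below. In such bulk RNA, fewer cells of a type and less RNA per cell cannot be told apart.

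Ezh2-containing complexes are known to bind mainly at promoters rich in CG dinucleotides, so the promoter windows of the members were read. RefSeq windows (GRCm38.p6) of 250 bases before to 50 bases after an annotated start were at hand for 7 of 10 members. *Cacna1a*, *Cacna1g* and *Cacna1h* had no window. Among the 32851 such windows of all genes, the median held 7 CG. Windows are shown for *Cacna1d*, the most abundant member, at both of its starts, for *Cacna1c* at its CG-rich start, and for *Cacna1f*, the retinal L-type gene, each on the strand of the gene with every CG in capitals.
Cacna1d, chr14:30353437-30353736, minus strand, 63 CG: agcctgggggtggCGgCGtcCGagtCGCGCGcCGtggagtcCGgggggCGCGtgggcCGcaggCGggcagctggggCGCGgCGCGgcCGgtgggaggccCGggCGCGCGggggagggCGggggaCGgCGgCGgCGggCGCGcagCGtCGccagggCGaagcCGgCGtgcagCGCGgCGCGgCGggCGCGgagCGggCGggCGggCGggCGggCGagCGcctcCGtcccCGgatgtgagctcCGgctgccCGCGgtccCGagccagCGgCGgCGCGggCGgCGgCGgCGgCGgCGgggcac
Cacna1d, chr14:30491107-30491406, minus strand, 4 CG: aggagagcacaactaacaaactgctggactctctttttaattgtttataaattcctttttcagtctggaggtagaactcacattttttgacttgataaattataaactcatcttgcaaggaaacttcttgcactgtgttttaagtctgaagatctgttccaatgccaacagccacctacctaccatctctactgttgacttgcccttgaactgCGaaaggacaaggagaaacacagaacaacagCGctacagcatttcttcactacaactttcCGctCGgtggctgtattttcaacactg
Cacna1c, chr6:119108446-119108745, minus strand, 57 CG: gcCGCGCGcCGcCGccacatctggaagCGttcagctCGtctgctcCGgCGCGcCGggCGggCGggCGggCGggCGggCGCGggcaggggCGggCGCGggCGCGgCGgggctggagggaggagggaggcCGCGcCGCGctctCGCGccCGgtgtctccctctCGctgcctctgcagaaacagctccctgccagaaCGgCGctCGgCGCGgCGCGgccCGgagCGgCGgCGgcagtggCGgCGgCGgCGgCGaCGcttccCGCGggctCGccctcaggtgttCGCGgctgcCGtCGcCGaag
Cacna1f, chrX:7606853-7607152, plus strand, 5 CG: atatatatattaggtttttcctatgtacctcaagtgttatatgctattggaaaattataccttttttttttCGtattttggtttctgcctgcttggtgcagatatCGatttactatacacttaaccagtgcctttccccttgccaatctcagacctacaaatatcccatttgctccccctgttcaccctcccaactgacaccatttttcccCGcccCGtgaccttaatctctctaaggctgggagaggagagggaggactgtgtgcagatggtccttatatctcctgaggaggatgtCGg

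At least as many CG as in the downstream *Cacna1d* window were present in 0.0304% of all windows, and for the *Cacna1c* window shown the share was 0.152%. The 2 other *Cacna1c* windows held 7 and 3 CG. *Cacna1b* had 35 CG (6.95% of windows had as many or more), *Cacna1i* 23, *Cacna1e* 11 and *Cacna1s* 9. The *Cacna1f* window, with 5, was matched or exceeded by 62.0% of windows. The counts are per gene and do not tell which start was used, and a CG count shows no binding.

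A single member, *Cacna1d*, supplied 47.4 to 51.5% of the pore subunit mRNA. To compare genes, CPM was divided by the merged exon length in kilobases (RPKM). In the GFP group *Cacna1d* stood at 10.01 ± 0.45 RPKM (SD, n = 3), followed by *Cacna1h* at 2.38 ± 0.33 and *Cacna1g* at 2.06 ± 0.05 RPKM, whose ranges overlapped. *Cacna1f* (1.44 ± 0.09 RPKM), *Cacna1s* (1.27 ± 0.19) and *Cacna1a* (1.19 ± 0.04) came next, each overlapping its neighbour. *Cacna1i* (0.5999 ± 0.006 RPKM), *Cacna1b* (0.436 ± 0.063), *Cacna1c* (0.268 ± 0.021) and *Cacna1e* (0.163 ± 0.028) closed the order without overlap between neighbours. In the 3 Ezh2 libraries *Cacna1d* was again first, at 8.36 ± 0.76 RPKM, and *Cacna1i*, *Cacna1b*, *Cacna1c* and *Cacna1e* were again last in that order, the first 2 of them with overlapping ranges. In between, *Cacna1g* (2.03 ± 0.35 RPKM) preceded *Cacna1h* (1.51 ± 0.37), *Cacna1a* (1.37 ± 0.44), *Cacna1f* (1.21 ± 0.45) and *Cacna1s* (1.01 ± 0.28), and all these neighbours overlapped. Parts of the order depended on the length used. Per length of the longest transcript, *Cacna1c* (0.3955 to 0.463) and *Cacna1b* (0.373 to 0.495) overlapped in the GFP group. There, *Cacna1a* (1.64 to 1.75) lay wholly above *Cacna1s* (1.15 to 1.54). All 10 members were tested in both fits, with 73 counts (*Cacna1e*, Ezh2 replicate 3) to 4086 counts (*Cacna1d*, GFP replicate 3).

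**Figure D1:**
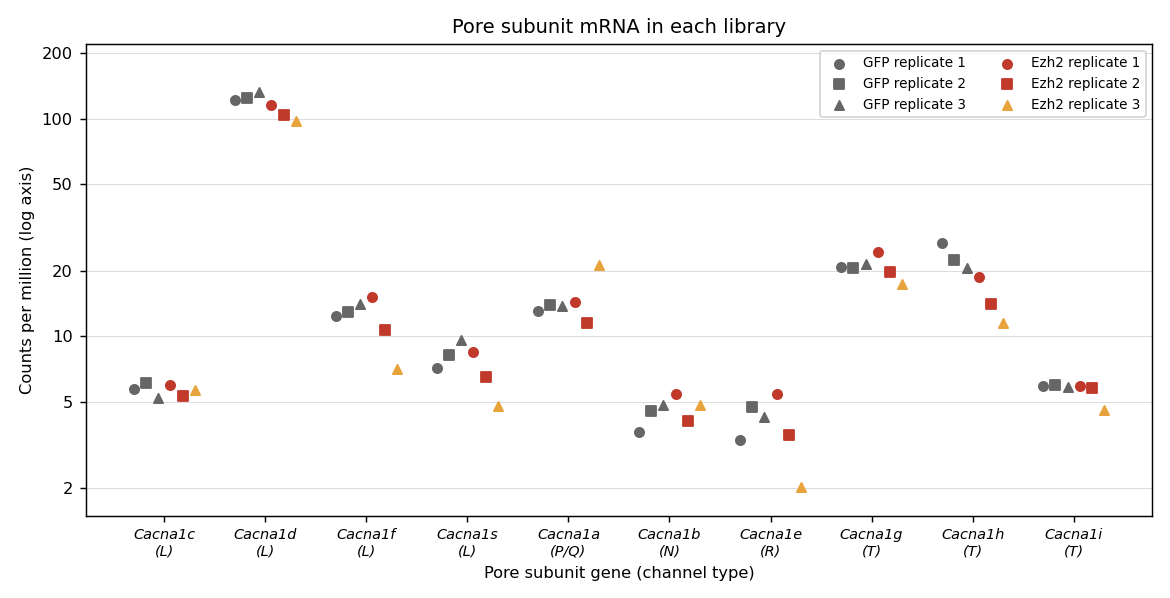
CPM (log axis) of the 10 pore subunit genes, with 1 point per library, in grey for GFP replicates 1 to 3, red for Ezh2 replicates 1 and 2 and orange for Ezh2 replicate 3. *Cacna1d* sits near 100 CPM in every library, and the rest lie below 30 CPM. All 3 Ezh2 points are below the GFP points for *Cacna1d* and *Cacna1h* alone. That is 2 of 10 members, near the 19.3% of all tested genes with this separation in 6 libraries.

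None of the 10 pore subunit genes was called higher or lower after *Ezh2* overexpression, in 5 libraries or in all 6. To be called, a gene needed more than a 1.5-fold change and an adjusted *P* below 0.05. Of all 20241 genes tested in 5 libraries, 1.27% were called lower and 2.45% higher by this rule, and of 19732 tested in 6 libraries 0.811% and 1.6%. By adjusted *P* alone, 2 members, *Cacna1d* and *Cacna1h*, were lower in 5 libraries, where 7.07% of all genes were, and 0 in all 6, where 2.27% were. Both had an unadjusted *P* under 0.05 in either fit, and no other member had. DESeq2 and limma-voom on the 5 libraries also called 0 members. The median log2 fold change of the members was -0.01 in 5 libraries and -0.12 in 6, beside -0.01 and 0.01 over all tested genes. The 95% interval of the change lay within 1.5-fold in either direction for 8 of 10 members in 5 libraries and for 4 of 10 in all 6. For the others a change past 1.5-fold lay within the interval.

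**Figure D2:**
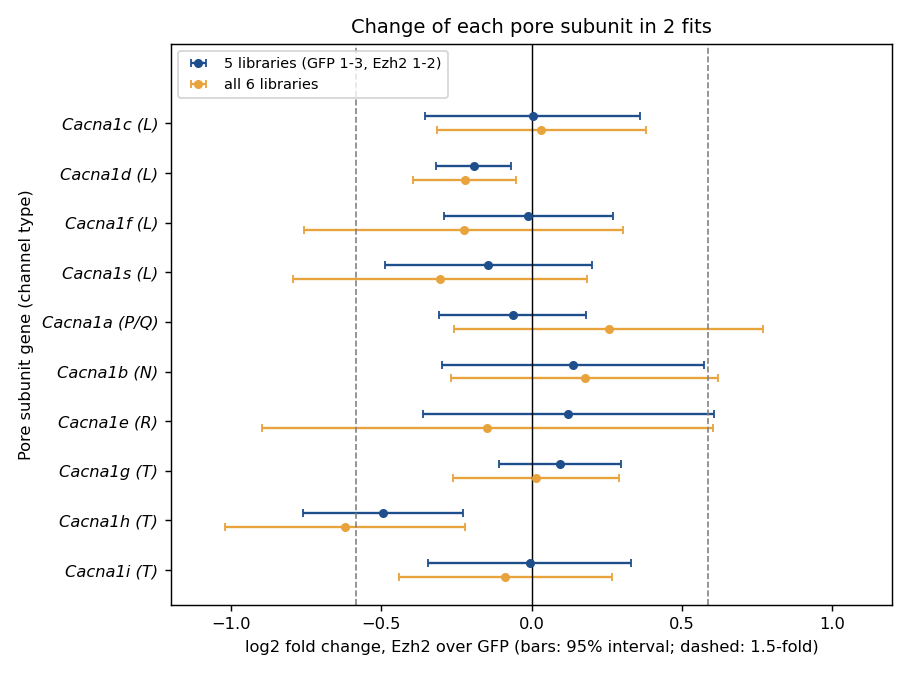
log2 fold change of each pore subunit, Ezh2 over GFP, with 95% intervals from edgeR, in blue for 5 libraries and orange for all 6. Dashed lines mark a 1.5-fold change. Only the intervals of *Cacna1d* and *Cacna1h* lie wholly below 0, and the 6-library intervals are wider for most genes.

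Among the L-type genes, *Cacna1d* (Cav1.3; chr14:30039939-30491455, minus strand), which opens at less depolarized potentials than most L-type channels, stood at 122, 124 and 133 CPM in GFP replicates 1 to 3 and at 116, 104 and 96.9 CPM in Ezh2 replicates 1 to 3. Every Ezh2 library was below every GFP library, a separation that 23.4% of tested genes showed in 5 libraries and 19.3% in 6. The difference was small, -0.19 ± 0.06 on the log2 scale or 12.5% lower (edgeR, adjusted *P* = 0.035), and -0.22 with an adjusted *P* of 0.12 in all 6 libraries. In the 5 libraries the adjusted *P* rose to 0.071, 0.135 and 0.283 when GFP replicate 2, GFP replicate 3 or Ezh2 replicate 2 was left out. Its exons share 589 bases (4.67% of their length) with the antisense gene *Chdh*, a choline dehydrogenase gene with 547 to 836 counts per library, and use of the strand in counting was not given in the sources used here.

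*Cacna1f* (Cav1.4; chrX:7607083-7635196, plus strand), the pore of photoreceptor ribbon synapses, had 12.4, 12.9 and 14.0 CPM in the GFP group and 15.2, 10.7 and 7.06 CPM in the Ezh2 group. Ezh2 replicate 1 was the highest and Ezh2 replicate 3 the lowest of all, so the groups overlapped. The log2 fold change was -0.01 (edgeR, adjusted *P* = 0.97, 95% interval -0.29 to 0.27) in 5 libraries and -0.23 (adjusted *P* = 0.57) in 6. The 9 rod markers summed to 421 to 496 CPM in the GFP group and to 743, 793 and 440 CPM in Ezh2 replicates 1 to 3. The 9 bipolar markers summed to 642 to 652 CPM in the GFP group and to 647, 586 and 530 CPM in Ezh2 replicates 1 to 3. The part of either cell type in the values of *Cacna1f* was not tested.

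*Cacna1c* (Cav1.2; chr6:118587240-119196418, minus strand), the main L-type channel of heart, smooth muscle and brain, was low, with 5.73, 6.10 and 5.21 CPM in the GFP group and 5.96, 5.34 and 5.64 CPM in the Ezh2 group. All 3 Ezh2 values lay within the GFP range. Its log2 fold change of 0.00 (edgeR, adjusted *P* = 0.99, 95% interval -0.35 to 0.36) was 0.03 (adjusted *P* = 0.91) in all 6 libraries.

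*Cacna1s* (Cav1.1; chr1:136052750-136119822, plus strand), best known as the voltage sensor of skeletal muscle, had 7.16, 8.22 and 9.60 CPM in the GFP group and 8.48, 6.51 and 4.78 CPM in the Ezh2 group. The groups overlapped through Ezh2 replicate 1, and the log2 fold change was -0.14 (edgeR, adjusted *P* = 0.62, 95% interval -0.49 to 0.20), or -0.31 (adjusted *P* = 0.40) in all 6 libraries. The antisense gene *Gm37759*, with 8 to 23 counts per library, covers 19.98% of its exons.

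The genes of presynaptic channels did not separate by group. *Cacna1a* (Cav2.1, P/Q type; chr8:84388440-84640246, plus strand), the main release channel of most central synapses, had 13.0, 13.9 and 13.8 CPM in the GFP group and 14.4, 11.5 and 21.2 CPM in the Ezh2 group. The direction turned on Ezh2 replicate 3, which was the highest of all 6. The log2 fold change was -0.06 (edgeR, adjusted *P* = 0.77, 95% interval -0.31 to 0.18) without it and 0.26 (adjusted *P* = 0.50) with it.

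*Cacna1b* (Cav2.2, N type; chr2:24603887-24763152, minus strand), a release channel of sensory and sympathetic terminals, had 3.63, 4.55 and 4.82 CPM in the GFP group and 5.40, 4.08 and 4.81 CPM in the Ezh2 group. Its log2 fold change was 0.14 (edgeR, adjusted *P* = 0.71, 95% interval -0.30 to 0.57) in 5 libraries and 0.18 (adjusted *P* = 0.59) in 6. *Cacna1e* (Cav2.3, R type; chr1:154390731-154884501, minus strand) was the lowest member per length, with 3.34, 4.74 and 4.26 CPM in the GFP group and 5.40, 3.51 and 2.03 CPM in the Ezh2 group. Its log2 fold change was 0.12 (edgeR, adjusted *P* = 0.78, 95% interval -0.36 to 0.61) and turned to -0.15 (adjusted *P* = 0.80) when Ezh2 replicate 3 entered. For both genes the groups overlapped, and Ezh2 replicate 1 was the highest library.

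Of the T-type genes, *Cacna1h* had the largest difference of all 10 members. *Cacna1h* (Cav3.2; chr17:25374285-25433783, minus strand), known from sensory neurons, where it lowers the firing threshold, stood at 26.9, 22.4 and 20.5 CPM in the GFP group and at 18.7, 14.1 and 11.5 CPM in the Ezh2 group. The highest Ezh2 library was below the lowest GFP library, as for 23.4% of tested genes in 5 libraries and 19.3% in 6. In 5 libraries *Cacna1h* was 29.1% lower (log2 fold change -0.50 ± 0.13, edgeR, adjusted *P* = 0.012), a fold of 1.41 that missed the limit of 1.5. In all 6 libraries the fold was 1.54 (log2 fold change -0.62), but the adjusted *P* was 0.082. DESeq2 gave an adjusted *P* of 0.0037 and limma-voom 0.013 on 5 libraries, with log2 fold changes of -0.50 in either. Single libraries decided its call. Without Ezh2 replicate 1 the log2 fold change was -0.70 and *Cacna1h* was called lower, without Ezh2 replicate 2 it was -0.32 (adjusted *P* = 0.18), and without GFP replicate 1 it was -0.38 (adjusted *P* = 0.051).

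*Cacna1g* (Cav3.1; chr11:94408391-94474198, minus strand), known from thalamic burst firing, overlapped *Cacna1h* in level per length in the GFP group, and had 20.7, 20.5 and 21.4 CPM in the GFP group and 24.5, 19.8 and 17.5 CPM in the Ezh2 group. Its 95% interval, -0.11 to 0.30 around a log2 fold change of 0.09 (edgeR, adjusted *P* = 0.58), did not reach 1.5-fold, nor did that of all 6 libraries (-0.26 to 0.29). *Cacna1i* (Cav3.3; chr15:80287238-80398279, plus strand), the slowest of the T-type channels, was the steadiest member among the GFP libraries, with 5.92, 5.97 and 5.86 CPM, and had 5.90, 5.80 and 4.59 CPM in the Ezh2 group. Its log2 fold change was -0.01 (edgeR, adjusted *P* = 0.99, 95% interval -0.34 to 0.33) in 5 libraries and -0.09 (adjusted *P* = 0.75) in 6. The difference between the changes of *Cacna1h* and *Cacna1g* was not itself tested.

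Most markers of Müller glia, and some of amacrine cells, were lower in the Ezh2 group, as *Cacna1d* and *Cacna1h* were. Of 6 Müller glia markers, 5 were lower in the Ezh2 group by adjusted *P* alone and 1, *Apoe*, which macrophages also express, was called higher. Of all tested genes, 7.07% were lower by adjusted *P* alone and 2.45% were called higher. *Glul*, the glutamine synthetase of Müller glia, had 9540 to 9900 CPM in the GFP group and 6937, 6898 and 5446 CPM in Ezh2 replicates 1 to 3 (log2 fold change -0.49, edgeR, adjusted *P* = 2.81e-07). The summed Müller glia list, led by *Glul* and *Apoe*, spanned 20040 to 20410 CPM in the GFP group and 15850 to 20820 CPM in the Ezh2 group. The 8 amacrine markers summed to 509 to 529 CPM in the GFP group and 398 to 449 CPM in the Ezh2 group. Of the 7 tested, 3 were lower by adjusted *P* alone and 1, *Tfap2b*, was called lower, beside 7.07% and 1.27% of all tested genes. *Gad1*, the glutamate decarboxylase of amacrine cells, lay the other way, with 1.93, 1.77 and 1.92 CPM in the GFP group and 3.66, 2.54 and 12.1 CPM in the Ezh2 group (log2 fold change 0.73, edgeR, adjusted *P* = 0.065), and *Chat* was at 0 in 1 library. The 9 bipolar markers, with 0 past the adjusted *P*, summed to 642 to 652 CPM in the GFP group and 530 to 647 CPM in the Ezh2 group. Of 7 T cell markers 5, and of 6 microglia and macrophage markers 4, were higher by adjusted *P* alone, as were 9.38% of all tested genes, and 0 of either list were called. The part of these cells in the 2 differences was not tested.

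By channel type, the ranges of the L-, R- and T-type shares overlapped between the groups, while those of the N type did not. L-type genes held 65.5 ± 1.79% of the summed RPKM of all 10 members in the GFP group (SD, n = 3) and 64.0 ± 1.89% in the 3 Ezh2 libraries, and T-type genes 25.5 ± 2.14% and 24.1 ± 1.75%. *Cacna1d* alone made up 49.8, 50.2 and 51.5% in GFP replicates 1 to 3 and 47.4, 50.8 and 50.4% in Ezh2 replicates 1 to 3. N-type mRNA held 2.20 ± 0.27% (1.88 to 2.37%) and 2.84 ± 0.32% (2.54 to 3.17%), and R-type mRNA 0.822 ± 0.1398% and 0.831 ± 0.290%. The RPKM of *Cacna1b*, the only N-type gene, did overlap, at 0.365 to 0.484 in the GFP group and 0.411 to 0.5435 in the Ezh2 group. The P/Q-type share was 5.87 to 6.21% in the GFP group, 6.50% and 6.19% in Ezh2 replicates 1 and 2, and 12.2% in Ezh2 replicate 3. Within the T type, the share of *Cacna1h* was 14.2, 11.7 and 10.3% in the GFP group and 9.89, 8.92 and 7.74% in the Ezh2 group, while that of *Cacna1g* was 10.3 to 10.5% and 11.3 to 12.5%. These shares are descriptions with no test, since a share falls whenever another rises.

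**Figure D3:**
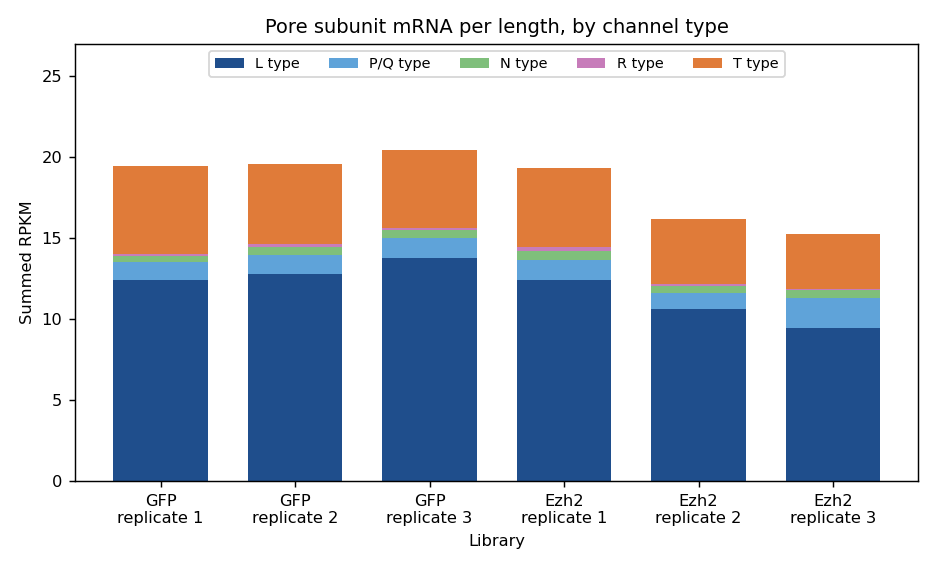
Summed RPKM of the pore subunit genes per library, stacked by channel type. L-type genes fill 62.0 to 67.4% of every bar and T-type genes 22.1 to 27.8%, and the bars are 19.4, 19.6 and 20.5 RPKM high in GFP replicates 1 to 3 and 19.4, 16.2 and 15.2 RPKM in Ezh2 replicates 1 to 3.

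Pore subunits of the L, P/Q, N and R types mostly work with auxiliary subunits, which help them reach the membrane and open normally. These are alpha2delta proteins on the outer face and beta proteins inside. Gamma proteins are listed with them, though several serve AMPA receptors instead. Of 16 such genes 14 were tested, and 2 fell, with 0 called higher, where 1.27% of all tested genes were called lower and 2.45% higher. In all 6 libraries 1 fell, against 0.811% of all genes. *Cacnb4*, a beta subunit of presynaptic channels, had 4.78, 4.68 and 4.49 CPM in the GFP group and 2.36, 2.71 and 1.22 CPM in the Ezh2 group. It fell by 0.86 ± 0.21 on the log2 scale (edgeR, adjusted *P* = 0.0097), and in all 6 libraries its log2 fold change was -1.12 with an adjusted *P* of 0.061. *Cacng5*, a gamma subunit that acts on AMPA receptors, had 5.43, 5.34 and 5.01 CPM in the GFP group and 1.77, 1.80 and 1.31 CPM in the Ezh2 group. It fell by 1.55 ± 0.22 (edgeR, adjusted *P* = 0.00012), and was called in all 6 libraries too (log2 fold change -1.66, adjusted *P* = 0.0059). For both genes every Ezh2 library was below every GFP library, as for 19.3% of all tested genes in 6 libraries. Both are on a list of excitability genes that the study chose on these libraries, so they are not independent evidence of its direction. The antisense gene *A430018G15Rik* shares 1433 bases with the exons of *Cacnb4*.

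By adjusted *P* alone 4 auxiliary genes were lower in 5 libraries, where 7.07% of all genes were, the other two being the most abundant of their families. *Cacna2d2*, an alpha2delta subunit, had 53.0 to 56.5 CPM in the GFP group and 38.3, 39.2 and 32.2 CPM in the Ezh2 group (log2 fold change -0.50, edgeR, adjusted *P* = 0.00012), and kept an adjusted *P* of 0.014 in all 6 libraries. *Cacng4*, another AMPA receptor partner, had 121 to 128 CPM in the GFP group and 102, 103 and 91.1 CPM in the Ezh2 group (log2 fold change -0.26, edgeR, adjusted *P* = 0.0030). *Cacnb3*, the most abundant beta subunit, had 54.3 to 60.4 CPM in the GFP group and 57.9, 53.4 and 46.5 CPM in the Ezh2 group, with a log2 fold change of -0.02 (edgeR, adjusted *P* = 0.86). The median log2 fold change of the 14 tested genes was -0.21, and 7 of them were lower without overlap between the groups of the 5 libraries, as were 23.4% of all tested genes. *Cacng1* and *Cacng6*, a skeletal muscle subunit and its relative, were too low to be tested, at 0.126 CPM or less.

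**Figure D4:**
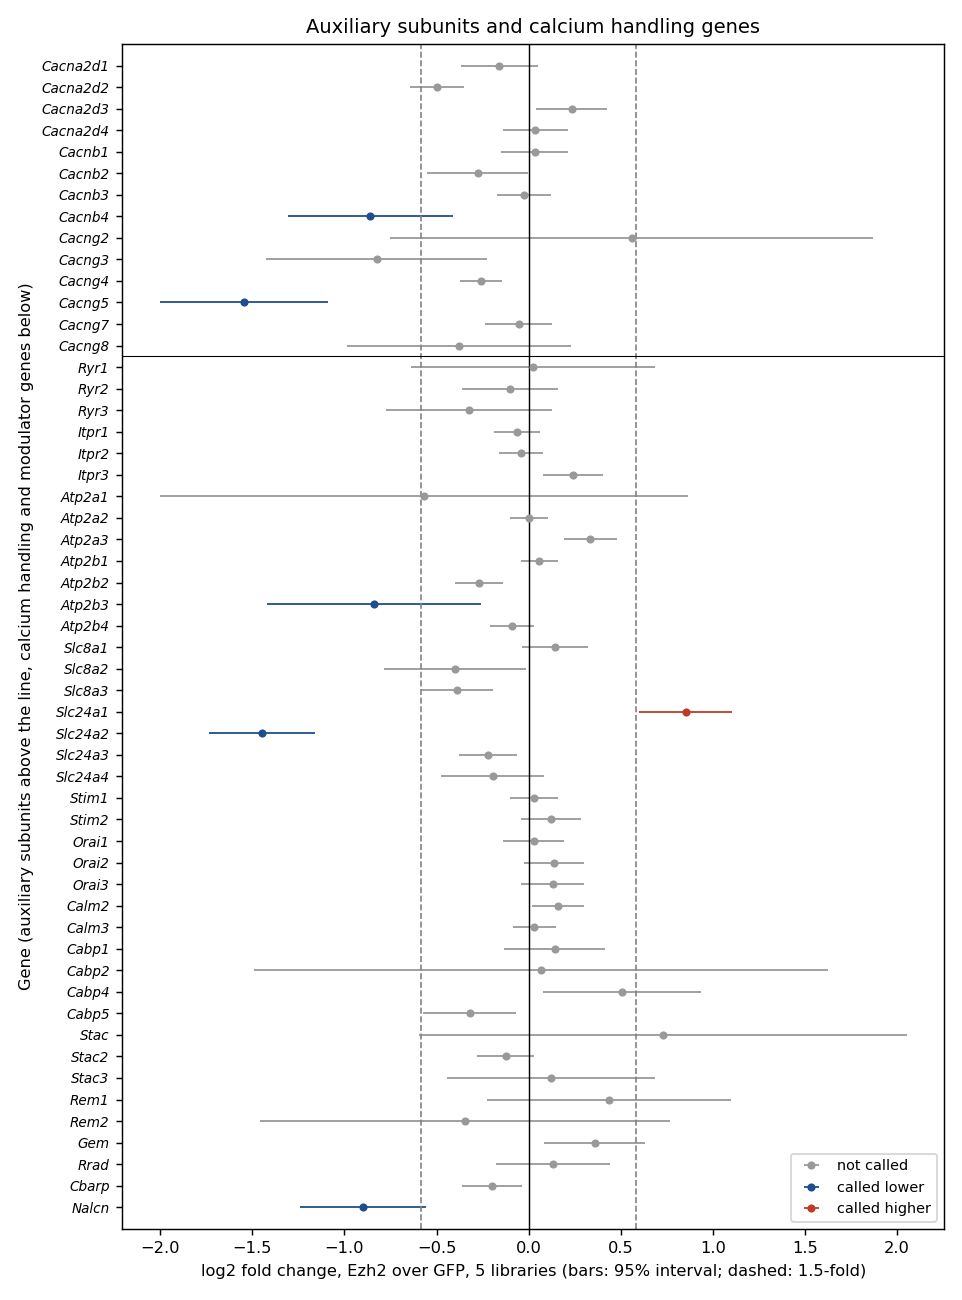
log2 fold change, Ezh2 over GFP, on 5 libraries with 95% intervals, for the 14 auxiliary subunit genes tested (above the line) and 40 of the 41 calcium handling and channel modulator genes (below it). Blue marks genes called lower, red those called higher and grey the rest, and dashed lines 1.5-fold. The 6 called genes are *Cacnb4*, *Cacng5*, *Atp2b3*, *Slc24a2* and *Nalcn* (lower) and *Slc24a1* (higher), and most other genes lie inside the dashed lines.

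Of 41 genes of calcium release, pumping, exchange, store-operated entry and channel modulation, 1 rose and 3 fell in 5 libraries. The single rise is near the share over all tested genes, 2.45%, and 1.27% of them were called lower. In all 6 libraries, with 40 of them tested, 0 rose and 2 fell, against 1.6% and 0.811% of all genes. The median log2 fold change of these genes was 0.02, and 22 were above 0 and 19 below. Without overlap between groups, 10 were lower and 9 higher in 5 libraries, close to the shares over all tested genes, 23.4% lower and 21.5% higher. *Slc24a2*, a potassium-dependent sodium-calcium exchanger of cones and ganglion cells, had 25.8, 19.2 and 23.9 CPM in the GFP group and 7.48, 9.16 and 5.31 CPM in the Ezh2 group. It fell by 1.45 ± 0.14 (edgeR, adjusted *P* = 2.3e-06), and by 1.61 in all 6 libraries (adjusted *P* = 0.0066). *Nalcn*, the sodium leak channel related in structure to the calcium channel pores, had 7.71 to 7.99 CPM in the GFP group and 4.53, 3.85 and 3.45 CPM in the Ezh2 group. It fell by 0.90 ± 0.16 (edgeR, adjusted *P* = 0.00099), and by 0.96 in all 6 libraries (adjusted *P* = 0.017). Both stand on the list of excitability genes mentioned above.

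*Atp2b3*, a neuronal plasma membrane calcium pump, had 2.46 to 2.88 CPM in the GFP group and 1.62, 1.31 and 1.03 CPM in the Ezh2 group. It fell by 0.84 ± 0.27 (edgeR, adjusted *P* = 0.047), but was called in only 4 of 19 alternative fits. *Slc24a1*, the exchanger of rod outer segments, had 15.9, 11.7 and 14.9 CPM in the GFP group and 23.7, 26.9 and 13.1 CPM in the Ezh2 group. It rose by 0.85 ± 0.12 (edgeR, adjusted *P* = 0.00012) in 5 libraries, and its log2 fold change was 0.62 with an adjusted *P* of 0.16 in all 6. Ezh2 replicate 3 was inside the GFP range for *Slc24a1*, as it was for the summed rod markers given above. Of the 9 rod markers 4 were called higher in 5 libraries, and of the 9 cone markers 8 were, beside 2.45% of all tested genes. The cone markers summed to 29.4 to 30.4 CPM in the GFP group and to 67.9, 59.4 and 39.8 CPM in the Ezh2 group. The part of rods and cones in the change of *Slc24a1* was not tested.

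The most abundant genes of 5 further handling families had a log2 fold change close to 0. *Itpr2*, a release channel of the endoplasmic reticulum, stood at 195 to 223 CPM over all 6 libraries (log2 fold change -0.04, edgeR, adjusted *P* = 0.68). *Atp2a2*, a reticulum pump, stood at 273 to 286 CPM (0.00; adjusted *P* = 0.98), and *Atp2b1*, the main plasma membrane pump of most cells, at 202 to 210 CPM (0.06; adjusted *P* = 0.46). *Slc8a1*, a sodium-calcium exchanger, had 43.0 to 55.7 CPM (0.14; adjusted *P* = 0.28), and *Stim1*, the sensor of store-operated entry, 64.3 to 73.3 CPM (0.03; adjusted *P* = 0.81). *Slc24a3*, the most abundant potassium-dependent exchanger, was at 95.6 to 100.6 CPM in the GFP group and at 93.7, 74.8 and 67.5 CPM in the Ezh2 group (-0.22; adjusted *P* = 0.052).

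By adjusted *P* alone 3 of the 41 handling genes were higher and 5 lower in 5 libraries, beside 9.38% and 7.07% of all tested genes. Other members of these families, named after their values were seen, passed the adjusted *P* but not the fold limit in 5 libraries. *Atp2a3*, a reticulum pump common in blood cells, had 53.5 to 54.9 CPM in the GFP group and 72.4, 62.9 and 95.6 CPM in the Ezh2 group (log2 fold change 0.34, edgeR, adjusted *P* = 0.0024). *Itpr3*, a release channel, had 33.2 to 35.6 CPM in the GFP group and 43.3, 37.9 and 63.9 CPM in the Ezh2 group (0.24, adjusted *P* = 0.044). For both, Ezh2 replicate 3, the library with the highest T cell markers, was the highest of all. *Atp2b2*, a neuronal plasma membrane pump, had 78.8 to 84.4 CPM in the GFP group and 69.9, 63.8 and 56.9 CPM in the Ezh2 group (-0.27, edgeR, adjusted *P* = 0.0063). *Slc8a3*, a sodium-calcium exchanger, had 22.2 to 25.9 CPM in the GFP group and 18.5, 17.5 and 13.4 CPM in the Ezh2 group (-0.39, edgeR, adjusted *P* = 0.0083). In all 6 libraries the adjusted *P* of these 4 genes was 0.084, 0.14, 0.062 and 0.065.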

How the data were processed

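Total RNA of sorted retinal cells was made into stranded libraries. The authors deposited raw counts per Ensembl gene for 6 libraries. Their processing notes, per the labels, name STAR 2.7.0d and GRCm38, while the counting program, annotation release and strand setting were not given in the sources used here. Each of the 6 columns belonged to a sample by its name (0 were left over). Of 55573 gene identifiers, 55480 matched GENCODE M21 (GRCm38), which gave symbols, coordinates and exon lengths. With strand use unknown, exons that overlap an antisense gene are uncertain. CPM was computed on library totals and RPKM on merged exons.

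With edgeR 4.0.16 (R 4.3.3), genes passing filterByExpr were TMM-scaled and tested between the groups by the two-sided quasi-likelihood F test, and *P* values were adjusted over all tested genes (Benjamini-Hochberg). Calls required more than a 1.5-fold change and an adjusted *P* below 0.05. GFP replicates 1 to 3 and Ezh2 replicates 1 and 2 entered the main comparison. Other fits used all 6 libraries, dropped single libraries, blocked on replicate number, changed scaling or filter, or ran limma-voom (limma 3.58.1) or DESeq2 1.42.0. The pore subunits and both related gene lists were chosen with earlier results of these data known. Genes named are the 10 pore subunits, *Ezh2*, the called genes of both lists and the most abundant gene of each subfamily, 1 of which is not reported here. *Pou4f2* and the other cell type markers come from marker lists chosen in the same way. *Apoe*, *Tfap2b*, *Gad1*, *Glul* and the other single markers printed were picked from that list after their values were seen.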

Additional observations from a re-analysis of the deposited data

How the results depend on the processing

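Calls of 0 pore subunits higher and 0 lower held in all 6 libraries, with DESeq2, limma-voom, DESeq2-type size factors in edgeR, library totals alone, no filter and a mean of at least 50 counts. By adjusted *P* alone 2 pore subunits were lower. Leaving out 1 library gave 0 to 1 pore subunits called lower, the 1 being *Cacna1h* without Ezh2 replicate 1. Auxiliary genes called lower numbered 2, and 1 in all 6 libraries, 4 by adjusted *P* alone, and 0 to 2 with 1 library left out (0 without GFP replicate 1 of all 6). Handling genes called higher numbered 1, and 0 in all 6 libraries, 3 by adjusted *P* alone and 0 to 1 with 1 left out. Those called lower numbered 3, and 5 by adjusted *P* alone and 0 to 2 with 1 left out. That lower count was 0 without GFP replicate 1 or 3 of all 6. Of all genes tested in 5 libraries, 9.38% were higher and 7.07% lower by adjusted *P* alone. A fit on fewer libraries has fewer degrees of freedom, and other causes of these shifts were not tested.

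Same-numbered libraries did not deviate together (correlations -0.0045, -0.0199 and -0.0099), so the number marks no pairing known here. With it as a block, 0 pore subunits were called on 5 or all 6 libraries. On all 6 the replicate block left 1 auxiliary gene lower, 0 handling genes higher and 1 lower. The blocked log2 fold change of *Cacna1h* was -0.58 on 5 libraries and -0.63 on all 6, and that of *Cacna1d* -0.16 and -0.22. Under the block, *Cacna1c* turned to -0.0563 and *Cacna1f* to 0.0256 on 5 libraries, and *Cacna1a* to 0.203 and *Cacna1e* to -0.224 on all 6.

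*Cacna1h* stayed below 0 in 19 of 19 alternative fits, with adjusted *P* between 2.83e-05 and 0.263, under the limit in 10, and *Cacna1d* also in 19 of 19, under the limit in 8. For *Cacna1h* and *Cacna1d* every Ezh2 library was below every GFP library. Their sign was thus all but fixed in these fits, and 19 of 19 restates that separation. The other members, *Cacna1i* apart, changed sign in at least 1 fit. *Cacna1a* turned to 0.257 and *Cacna1e* to -0.147 in all 6 libraries, and *Cacna1c* to -0.00743 with library totals alone and -0.0025 at a mean of at least 50 counts. With 1 library left out of the 5, or of all 6, log2 fold changes ranged from -0.0636 to 0.0883 for *Cacna1c*, -0.508 to 0.209 for *Cacna1f*, -0.507 to 0.0243 for *Cacna1s*, -0.221 to 0.448 for *Cacna1a*, -0.0607 to 0.317 for *Cacna1b*, -0.52 to 0.391 for *Cacna1e* and -0.109 to 0.228 for *Cacna1g*. None of these 7 passed the adjusted *P* in any fit. *Ezh2* was higher in 19 of 19 fits, and its adjusted *P* rose to at most 0.0767 when a GFP library was left out of all 6.

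With the longest transcript in place of merged exons, the GFP share was 6.80% for P/Q type, 1.76% for N type and 1.09% for R type, and the Ezh2 share was 2.27% for N type and 22.1% for T type.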
